A study of Homo sapiens with 52 samples.

Results

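The last dose step of PKF118-310 in Huh6 cells was the comparison of 0.4 µM with 0.3 µM. Its members were the 6 libraries labelled with these doses, 3 per dose, of 18 Huh6 libraries and 52 libraries in the study. Huh6 is an established hepatoblastoma line, a liver tumour of early childhood, and PKF118-310 is named by the submitters as a Wnt inhibitor. Cells were plated, left to attach, and then kept for 48 h in medium with 0.2, 0.3 or 0.4 µM of the inhibitor or with vehicle, with no other inhibitor in these 12 libraries. The study asked how Wnt and midkine signalling shape hepatoblastoma cells and macrophages near them, and 0.4 µM was its highest dose of this compound. The 0.2 µM and vehicle libraries served here to place the step, which spanned 0.1 µM like the preceding step from 0.2 to 0.3 µM but was a 1.33-fold and not a 1.5-fold increase in dose. Genes that keep changing at this step have not reached a plateau by 0.3 µM. Those with no detected change at it, and with an estimate held within a narrow margin, have levelled off.

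In the canonical Wnt pathway, beta-catenin enters the nucleus, joins TCF/LEF factors on DNA and switches on target genes, among them the pathway's own inhibitors AXIN2, NKD1 and NOTUM. Hepatoblastomas often carry activating changes in beta-catenin and express fetal liver genes such as AFP, GPC3 and IGF2 beside hepatocyte genes. Cells under chemical stress draw on other programmes: metallothioneins bind zinc and copper and are switched on by the metal sensor MTF1 at metal response elements, NRF2 drives glutathione and thioredoxin genes, ATF4 the integrated stress response, and HSF1 the heat shock genes.

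The metallothioneins had the highest median change of the gene lists at this step, and for MT1B and MT1H the bases before the start site are printed to show the metal response elements. The sequences come from RefSeq on GRCh38.p14 and run 5′ to 3′ on the + strand, ending at the base before the annotated start. Capitals mark each match to the element's core, TGCACNC or TGCGCNC on either strand. MT1B lies at chr16:56651736-56651885 and MT1H at chr16:56669664-56669813, both upstream of the first exon.
MT1B: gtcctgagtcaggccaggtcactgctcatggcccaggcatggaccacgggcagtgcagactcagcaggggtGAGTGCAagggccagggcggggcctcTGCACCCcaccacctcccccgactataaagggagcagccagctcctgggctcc
MT1H: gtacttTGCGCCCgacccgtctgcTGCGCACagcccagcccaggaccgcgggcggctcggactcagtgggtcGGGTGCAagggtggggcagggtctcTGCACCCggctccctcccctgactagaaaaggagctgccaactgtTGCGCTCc
The printed stretch holds 2 matches in MT1B and 5 in MT1H. Over 250 bases before the start, MT1B had 3, MT1H had 8 and MT2A had 7. Of the 10 metallothioneins on the list, 4 had a promoter in the RefSeq table and all 4 held the core, with a median of 5.5 matches. The core occurred in 24.8% of all 35116 promoters of the same length, and 0.37% held 4 or more. A match is a run of letters and not a measured binding site.

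The 6 libraries held about 19257100 to 19894900 counts each, so that 3 counts, the floor used here, equalled 0.154 to 0.159 CPM (a gene's counts scaled to a fixed library total). All levels below are CPM after scaling by the trimmed mean of M-values (TMM), and changes are log2 fold changes ± SE from edgeR's quasi-likelihood test with Benjamini-Hochberg adjustment over 15029 genes. Replicates within a dose differed by more than sampling noise, with a chi-square per degree of freedom of 2.12 to 5.29, highest between replicates 1 and 2 at 0.4 µM. The labels do not say whether the 3 libraries of a dose came from separate cultures, so p-values measure the spread between libraries, which may be technical. The 14 markers of the hepatoblastoma line summed to 20540 to 21880 CPM at 0.4 µM and 20920 to 21620 at 0.3 µM, 1 of them below 1 CPM at both doses. That sum held opposite changes: of 13 tested, 9 fell and 4 rose, with a median log2 change of -0.52, and keratin 18 (KRT18) rose from 3087, 3136 and 3161 CPM to 4033, 4001 and 4125. Of 11 macrophage markers, 9 were below 1 CPM at 0.4 µM in a sum of 50.8 to 54.7 CPM, against 24.2 to 28.5 at 0.3 µM. CSF1R, the receptor for colony stimulating factor 1, made up most of that sum, at 46.7, 50.8 and 50.3 CPM at 0.4 µM and 24.1, 20.4 and 21.6 at 0.3 µM. The summed fibroblast markers were lower at 0.4 µM (145 to 153 CPM) than at 0.3 µM (163 to 172). Of 4 fibroblast markers tested, 2 fell and 1 rose. PDGFRB, a fibroblast and pericyte receptor, fell from 66.8, 64.1 and 68.8 CPM to 38.9, 39.1 and 43. RGS5, on the same list, rose from 49.7, 48 and 52 CPM to 62.2, 64 and 60.8. The summed endothelial markers were also lower (127 to 135 against 142 to 152 CPM). That sum was mostly PECAM1, at 129, 126 and 133 CPM at 0.4 µM, and 6 of the 7 markers were below 1 CPM at both doses. The part of such cells in the results was not tested. In bulk RNA, fewer cells of a kind and less RNA per cell cannot be told apart.

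The step moved a large part of the transcriptome. Most tested members of the metallothionein, NRF2, heat shock and immediate early lists rose, and most of the hepatocyte, lipid synthesis, mitotic and endoplasmic reticulum chaperone lists fell, with the counts given below. Between 0.3 and 0.4 µM, 3250 genes rose, 21.6% of those tested, and 2885 fell, 19.2%. Of these, 211 rose and 278 fell at least 2-fold. Without replicate 1 of 0.4 µM, 3062 genes rose and 2587 fell. In the preceding step, from 0.2 to 0.3 µM, 1722 genes rose (11.5%) and 1466 fell (9.75%), with 92 and 40 at least 2-fold. From vehicle to 0.2 µM, 157 genes rose (1.04%) and 180 fell (1.2%). The median size of the change over all genes was 0.20 on the log2 scale in the last step, 0.12 in the preceding one and 0.07 from vehicle to 0.2 µM. In a direct test of the last step against the preceding one, 410 genes had a higher log2 change in the last (2.73%) and 538 a lower one (3.58%). The median log2 change of all genes in the last step was 0.0017 with TMM and 0.0037 with DESeq2's size factors. Both scalings centre on the bulk of the genes, so changes are relative to it, and a shift of all genes together would not be seen.

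**Figure D1:**
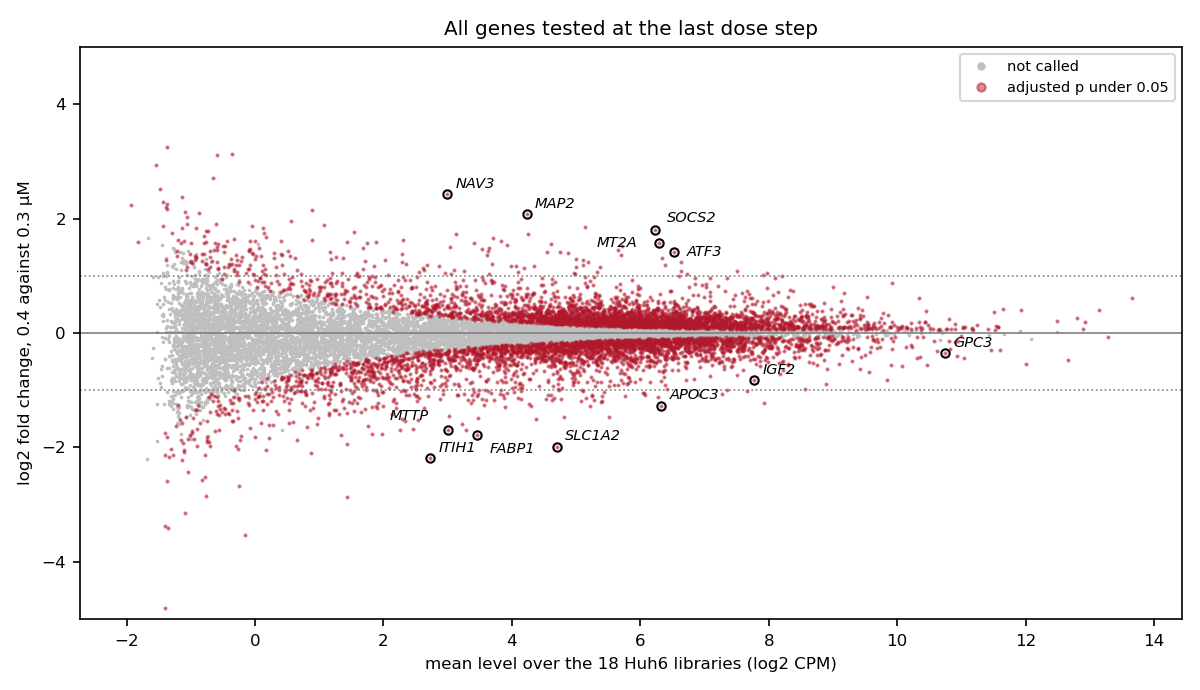
Log2 fold change between 0.4 and 0.3 µM (y) against the mean level over 18 Huh6 libraries in log2 CPM (x) for 15029 genes. Red points passed the adjusted threshold of 0.05, grey points did not, dotted lines mark a 2-fold change and circles mark genes described in the text, from NAV3 at 2.44 to ITIH1 at -2.19.

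Of the genes moved by at least 0.5 on the log2 scale at 0.3 µM, most went on moving; with a limit of 1, 128 kept changing and 127 were undecided. Against vehicle, 2253 genes were higher at 0.3 µM (15% of those tested) and 2023 lower (13.5%), and 824 of them had moved by at least 0.5 on the log2 scale. Of these 824, 532 moved further in the same direction at 0.4 µM, called here kept changing, and 16 turned back. Only 8 levelled off, that is, were not called in the last step and had a 95% interval within a margin of 0.322 on either side of 0 on the log2 scale. The other 268 were undecided, neither called nor within the margin, and had a median level of 0.57 log2 CPM against 3.43 for those that kept changing. Among the 437 moved genes with a mean level of at least log2 CPM 2, 388 kept changing (88.8%), 8 levelled off, 2 turned back and 39 were undecided. These classes use the 0.3 µM libraries in both comparisons, so they describe the genes and are not a test of a shared direction. Of the 532 genes that kept changing, 6 also had their last-step interval within the margin, and only their call set them apart from the levelled genes. Among all 532, 191 moved at least 2-fold further, with a median further change of 0.81 for those that had risen and -0.89 for those that had fallen. At 0.3 µM they had reached a median of 49.1% of their log2 change at 0.4 µM. By the direct test the log2 change was larger in the last step than in the preceding one for 92 of them. It was smaller for 4, among them MT2A, MT1H and PPP1R15A. A call in the last step was needed to enter this class, which favours a larger last step. The counts of 92 and 4 are therefore not a test of step sizes.

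**Figure D2:**
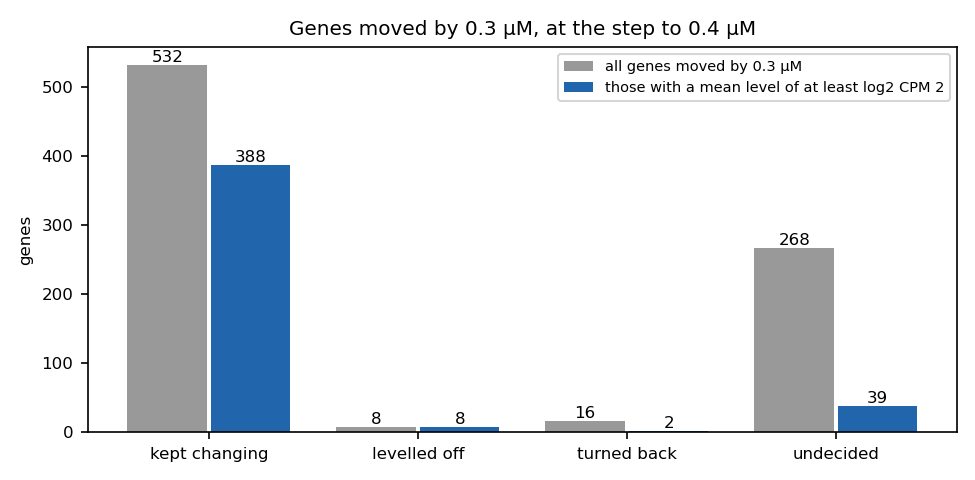
Number of genes (y) in each class of behaviour at the last step, among the 824 genes moved by at least 0.5 log2 at 0.3 µM (grey) and among the 437 of them with a mean level of at least log2 CPM 2 (blue). Kept changing holds 532 and 388 genes, levelled off 8 and 8.

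The 0.2 µM libraries give a view of the direction that shares no library with the last step. Over all genes tested, 21.6% rose and 19.2% fell in the last step. Of the 180 genes lower at 0.2 µM than in vehicle, 128 fell again from 0.3 to 0.4 µM (71%). In the same set 26 rose (14%) and 26 were not called. Of the 157 genes higher at 0.2 µM, 107 rose again (68%), 34 were not called and 16 fell (10%). CRYBG1, an actin-associated tumour suppressor candidate, was 1 of the 16: it was higher at 0.2 µM by 0.29 ± 0.06 and fell by 1.08 ± 0.07 in the last step. GLUD1, which encodes glutamate dehydrogenase, rose by 0.15 ± 0.03 at 0.2 µM and fell by 0.56 ± 0.03 in the last step, from 354, 356 and 346 CPM to 249, 230 and 236. LDHA, lactate dehydrogenase A, took the opposite course: it fell by 0.27 ± 0.03 at 0.2 µM and rose by 0.29 ± 0.03 in the last step, from 428, 446 and 431 CPM to 550, 513 and 532. GLUD1 and LDHA lie outside the rule for named genes and were picked after their values were seen.

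All 7 metallothioneins that were tested rose in the last step, 5 of them under every setting tried. Their median log2 change was 1.58, against 1.85 in the preceding step, where 5 rose, and 2 had risen from vehicle to 0.2 µM. Counts of list members are to be read against the 21.6% of all genes that rose and the 19.2% that fell. The lists were chosen with earlier results of these data known, so all such counts describe their members and are not a test. MT2A (chromosome 16, 56608199 to 56609497 in GENCODE 29 on GRCh38) stood at 103, 98.7 and 96.9 CPM at 0.3 µM and at 286, 304 and 303 at 0.4 µM. The groups did not overlap, and MT2A rose by 1.58 ± 0.04 (adjusted p = 8.5e-31), from a vehicle level of 19.5 ± 1.56 (SD, n = 3) and a mean of 26.8 at 0.2 µM. Its log2 change was smaller than in the preceding step (difference -0.32, adjusted p = 0.0062). MT1H rose from 12.4, 11.4 and 12.1 CPM to 39.4, 39.3 and 39.8, a change of 1.73 ± 0.10. Its vehicle level was 0.269 CPM, and it was one of the genes whose log2 change was smaller in the last step than in the preceding one (difference -1.65, adjusted p = 1.8e-05). MT1G rose from 34.9, 26.8 and 29.4 CPM to 89.2, 89 and 91.1, by 1.56 ± 0.07, and here no difference between the steps was detected (difference 0.18, adjusted p = 0.55). MT1B, at 1.47 to 1.97 CPM at 0.3 µM, stood at 5.89 to 7.01 at 0.4 µM. MT1F, named outside the rule after its values were seen, rose by 1.27 ± 0.06 to between 108 and 115 CPM. MT1A, also outside the rule, and MT1M stayed at or below 1.84 CPM, and their adjusted p-values of 0.049 and 0.023 were the weakest of the list. MT1A lost its call under 8 of 18 alternative settings and MT1M under 4, so that 5 to 7 members were called over the settings, 5 without replicate 2 of either dose. These genes are close copies of each other, and reads shared between them may have been split or dropped in counting. Of 9 zinc transport and sensing genes tested, 2 rose and 1 fell.

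**Figure D3:**
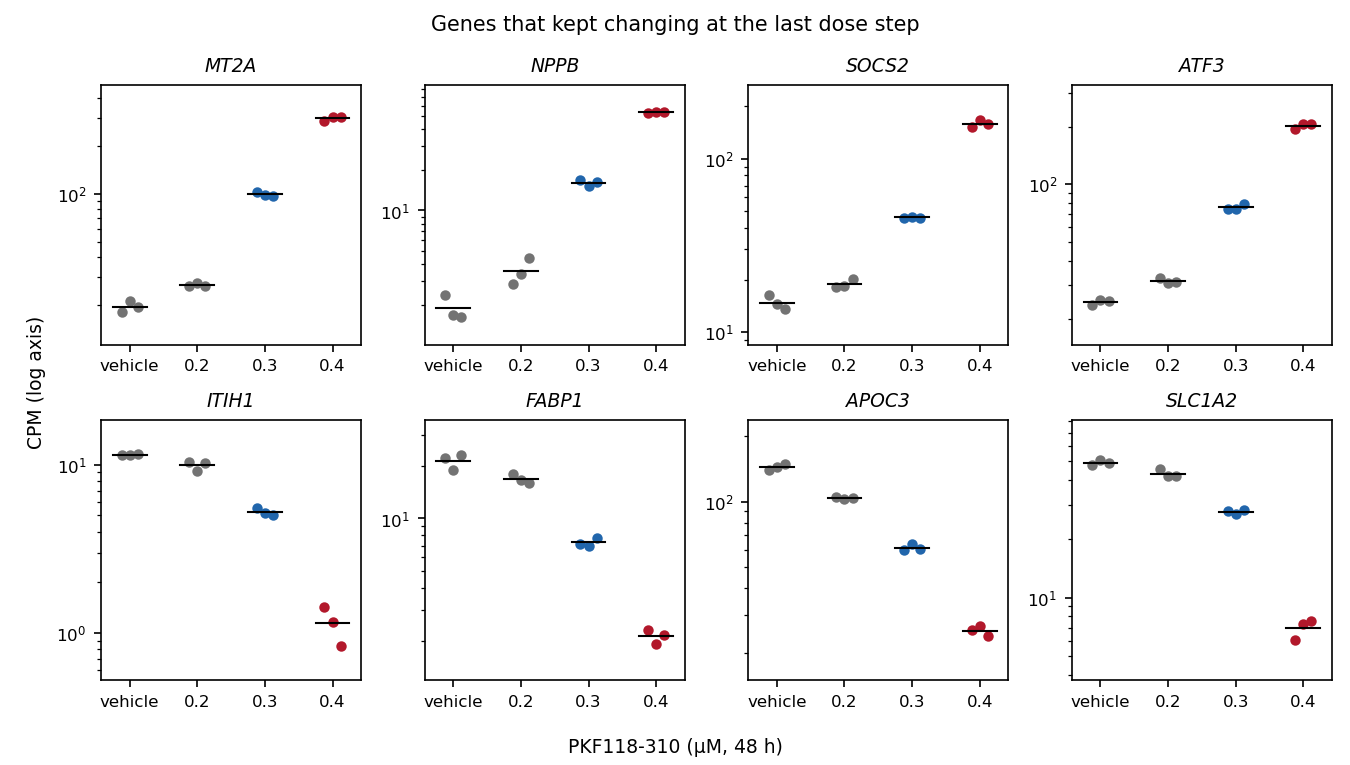
CPM on a log axis (y) in each library of vehicle, 0.2, 0.3 and 0.4 µM (x) for 4 genes that rose (top) and 4 that fell (bottom). Points are libraries, bars are means of 3, and in all 8 panels the 0.4 µM libraries (red) lie wholly beyond the 0.3 µM libraries (blue), as in MT2A, at 286 to 304 against 96.9 to 103.

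The genes with the largest rises by the naming rule included NAV3 and MAP2. NAV3, a microtubule plus-end protein, went from 1.73, 2.54 and 3.55 CPM to 14, 13.9 and 14.6, a change of 2.44 ± 0.15. MAP2, a microtubule-associated protein best known from neurons, went from 4.46, 4 and 4.22 CPM to 15.5, 19.9 and 18, or 2.08 ± 0.12. Both had been below 1 CPM in vehicle, and in both the libraries of the doses did not overlap. SOCS2, a feedback inhibitor of cytokine and growth hormone receptors, rose from 45.5, 46.2 and 45.8 CPM to 152, 167 and 158. Its change of 1.79 ± 0.05 exceeded that of the preceding step, by 0.53 (adjusted p = 9.7e-05). TAGLN, the smooth muscle actin-binding protein transgelin, rose from 44.5 to 46.3 CPM to 128 to 135, and FHL2, a LIM-domain coregulator of actin-linked signalling, from 9.55 to 12.3 CPM to 31.8 to 33 CPM. NPPB, the precursor of B-type natriuretic peptide, reached 53.5 to 54 CPM from 15.3 to 16.8, and EDN1, which encodes the vasoconstrictor endothelin-1, reached 35.2 to 35.9 from 11.3 to 14.2. In NPPB, TAGLN and EDN1 no difference between the last and the preceding step was detected (adjusted p = 0.10, 0.62 and 0.78).

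Of 15 mesenchymal genes tested, 10 rose and 3 fell, with a median of 0.28 (0.12 in the preceding step). ANKRD1, a target of the YAP coactivator, rose from 242, 243 and 243 CPM to 485, 488 and 489, and CCN1, another, from between 299 and 310 to between 470 and 497. VIM, the intermediate filament vimentin, rose by 1.83 ± 0.36 but only to 1.21, 2.76 and 2.16 CPM, from 0.420, 0.571 and 0.720. COL1A1, a chain of type I collagen, was among the 3 that fell, by 0.17 ± 0.06, a call lost without replicate 1 or 2 of 0.4 µM. Of 12 epithelial genes tested, 7 rose and 2 fell, led by keratin 18 (KRT18) at 0.37 ± 0.02 and the epithelial transcription factor GRHL2 at 0.36 ± 0.08, so both kinds of marker held more rising than falling genes.

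Immediate early genes, which are induced within minutes of a stimulus and many of which encode transcription factors, rose in 11 of 13 cases and fell in none. Their median was 0.83 (0.61 in the preceding step). ATF3, a stress-induced repressor of the same bZIP family as FOS and JUN, was counted in the integrated stress list below and not among these 13. ATF3 stood at 74.2, 74.8 and 79.1 CPM at 0.3 µM and at 194, 206 and 207 at 0.4 µM. It rose by 1.41 ± 0.04 (adjusted p = 1.9e-29), with no detectable difference from the preceding step (0.14, adjusted p = 0.33). FOSL1, an AP-1 subunit, rose from 16.5, 17.9 and 15.3 CPM to 42.2, 47.6 and 43.3, and NR4A1, an orphan nuclear receptor, from 10.2, 10.3 and 11.1 to 28.1, 27 and 26.5. FOSL1 and NR4A1 rose more in the last step than in the preceding one, by 0.73 and 0.61 (adjusted p = 0.0013 and 0.027). MAFF, a small MAF partner of NRF2, rose to between 24.5 and 28.4 CPM from between 8.82 and 10.4. Of 13 feedback regulators of the MAP kinase pathway, 10 rose and 3 fell. DUSP5, a nuclear phosphatase of ERK, rose from 58.7, 61.3 and 60.9 CPM to 144, 154 and 150, whereas DUSP2, another phosphatase, fell from 2.15 to 2.62 CPM to 0.791 to 1.84.

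NRF2 targets rose in 24 of 29 cases and fell in 1, with a median of 0.36 against 0.23 in the preceding step, and 8 of them rose more in the last step than before it. AKR1C1, an aldo-keto reductase of steroids and reactive carbonyls, rose from 7.04, 6.54 and 7.46 CPM to 22.1, 23.1 and 21.2 (1.66 ± 0.10). AKR1C2 and AKR1B10, relatives of the same family, rose by 1.23 ± 0.07 and 1.46 ± 0.16; the AKR1C genes are near-identical, so their reads may not be assigned with certainty. OSGIN1, an oxidative stress induced growth inhibitor, rose from 37.4, 37.3 and 42.4 CPM to 95.6, 102 and 103. GCLM, the regulatory subunit of the first enzyme of glutathione synthesis, went from 109, 110 and 111 CPM to 219, 215 and 206. Its rise of 0.95 ± 0.03 was 0.41 more than in the preceding step (adjusted p = 7.6e-06). HMOX1, haem oxygenase 1, rose less, from 251, 247 and 259 CPM to 346, 350 and 344. NQO1 (chromosome 16, 69706996 to 69726951), a quinone reductase and a standard NRF2 target, was the exception of the list in that it levelled off. It held 16.6, 17.9 and 20.1 CPM at 0.3 µM and 20.5, 17.3 and 18.6 at 0.4 µM, overlapping groups, after a rise of 0.66 ± 0.09 from a vehicle level of 11.5 ± 0.961 (SD, n = 3). The antioxidant core TGACNNNGC was found in 6 of 28 RefSeq promoters of 22 listed targets and in 10.9% of all promoters.

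The integrated stress list rose in 16 of 25 cases and fell in 1, median 0.30 (0.13 in the preceding step). Its largest rise was that of ATF3, described above, at 1.41. PPP1R15A, the phosphatase subunit that reverses the stress block on translation, went from 298, 302 and 306 CPM to 587, 616 and 616. Its log2 rise of 1.01 ± 0.03 was smaller than that of the preceding step by 0.36 (adjusted p = 9.2e-06). The preceding step was a 1.5-fold increase in dose and the last step a 1.33-fold one. GDF15, a secreted stress hormone, went from 258, 252 and 265 CPM to 506, 546 and 559, by 1.06 ± 0.03, with no detectable difference between the steps (adjusted p = 0.082). SLC3A2, the heavy chain of amino acid transporters, rose to 959, 996 and 1003 CPM from 612, 587 and 616. Cytosolic heat shock genes rose in 14 of 15 cases and fell in none, with a median of 0.36 against 0.08 in the preceding step, where 8 rose and 1 fell. HSPA1B, an inducible HSP70, rose from 9.45, 8.51 and 10.3 CPM to 16.4, 18.8 and 16.8, and HSPA1A, its near-identical copy, from 1.5 to 2 CPM to 2.85 to 3.89. HSPH1, an HSP110 chaperone, moved from 345, 353 and 356 CPM to 501, 507 and 491, by 0.27 more than in the preceding step (adjusted p = 6.6e-05). BAG3, a co-chaperone of HSP70, rose by 0.51 ± 0.04, also more than before (difference 0.28, adjusted p = 0.021). In all, 6 of the 15 heat shock genes rose more in the last step. A heat shock core, GAANNTTC, was present in 10 of 25 promoters of 15 listed genes and in 5.78% of all promoters. The amino acid response core TGATGNAAT was present in 1 of 39 promoters of 25 listed integrated stress genes, tested or not, and 0.888% of all. Of the 17 called genes of that list with a promoter, 0 held it.

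Chaperones of the endoplasmic reticulum went the other way. Of 18 tested, 14 fell and 3 rose, with a median of -0.16, where the preceding step had 4 up and 4 down and a median of 0.01. CALR, calreticulin, fell from 1444, 1423 and 1401 CPM to 1054, 1049 and 1074, and PDIA4, a disulphide isomerase, from 801, 781 and 802 to 600, 600 and 617. Both fell more in the last step than in the preceding one (differences -0.30 and -0.26, adjusted p = 3.2e-07 and 1.5e-05), as did 9 of the 18 genes in all. DNAJB9, a co-chaperone of the same compartment, rose by 0.46 ± 0.05.

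**Figure D4:**
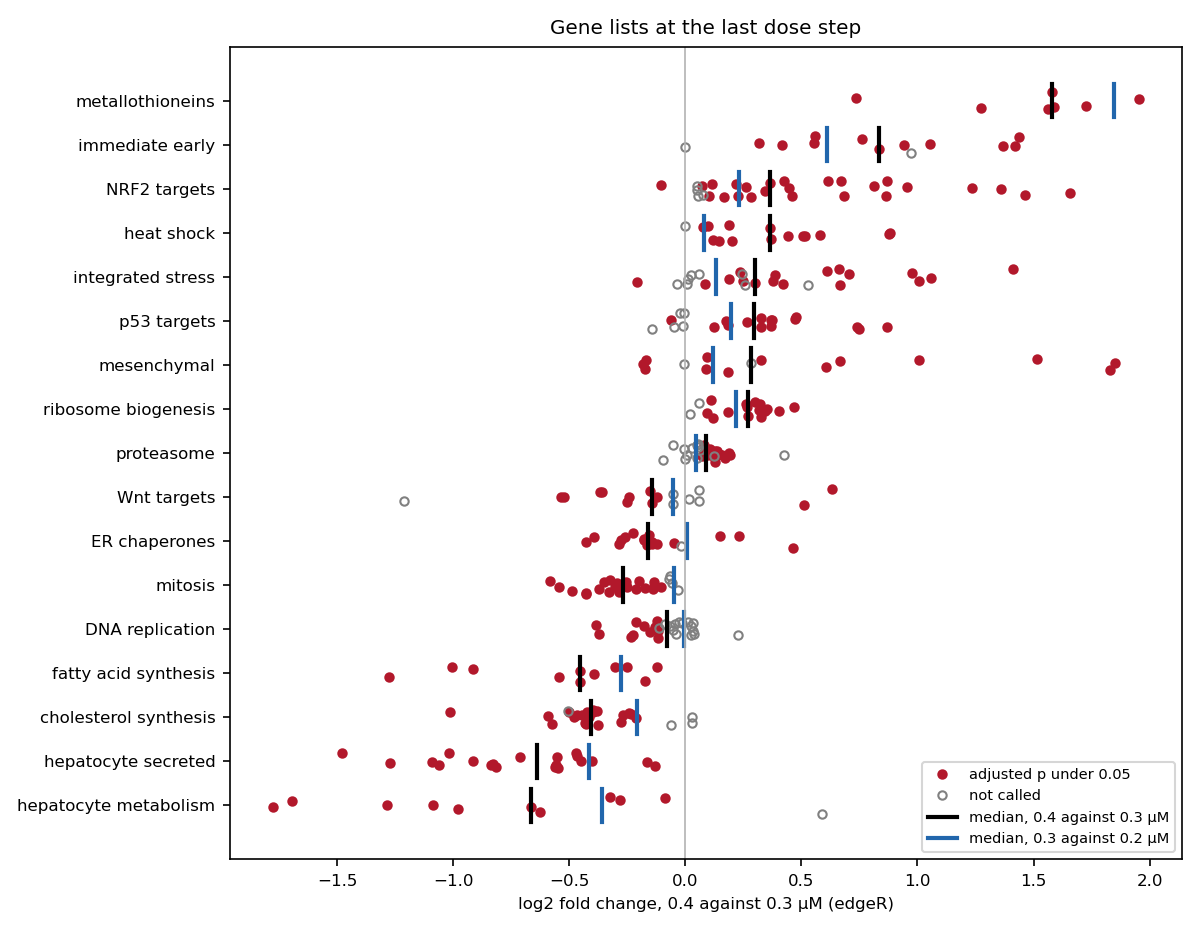
Log2 fold change between 0.4 and 0.3 µM (x) of every tested gene of 17 gene lists (rows). Filled red points passed the adjusted threshold of 0.05, open points did not, and bars give the list's median in the last step (black) and in the preceding step (blue): 0.36 and 0.08 for heat shock, -0.27 and -0.05 for mitosis.

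Liver genes fell together. All 20 tested genes of secreted hepatocyte proteins fell, with a median of -0.64 (-0.42 in the preceding step, where 18 fell), and of 11 genes of hepatocyte metabolism 10 fell and none rose, median -0.67 (-0.36). The metabolism list held 26 genes. Without the filter on low counts 20 of them were tested, of which 10 fell and 1 rose, at a median of -0.31. ITIH1 (chromosome 3, 52777592 to 52792068), a heavy chain of inter-alpha-trypsin inhibitor, was on neither of these hepatocyte lists. It had the largest fall by the naming rule, from 5.51, 5.19 and 5.04 CPM to 1.42, 1.17 and 0.844. It fell by 2.19 ± 0.20 (adjusted p = 1.1e-13), from a vehicle level of 11.5 CPM, and by 1.27 more than in the preceding step (adjusted p = 0.0011). FABP1, the liver fatty acid binding protein, went from 7.14, 7.01 and 7.76 CPM to 2.31, 1.91 and 2.16, a change of -1.77 ± 0.16, and vehicle had 21.3. MTTP, which loads lipid onto apolipoprotein B, dropped from 8.35, 8.41 and 8.95 CPM to 3.31, 2.76 and 1.85. Its fall of 1.70 ± 0.15 exceeded that of the preceding step (adjusted p = 0.00014). APOC3, an apolipoprotein of triglyceride-rich particles, fell from 59.7, 63.6 and 60.6 CPM to 25.4, 26.7 and 24.1, and FGA, the fibrinogen alpha chain, from 99.7, 97.8 and 89 to 49.9, 45.1 and 42.4. SLC10A1, the bile acid importer NTCP, fell from 13.8 to 15.7 CPM to 5.84 to 5.96, and CPS1, the first enzyme of the urea cycle, from 101 to 106 CPM to 47.0 to 50.6. ALB, albumin, was already low in this line, at 2.85 ± 0.714 CPM in vehicle (SD, n = 3), and fell from 1.94, 1.45 and 2 to 0.999, 1.06 and 0.791.

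Transporters and metabolic enzymes outside those lists were among the largest falls by the naming rule. SLC1A2, a glutamate transporter also found around hepatic veins, went from 27.9, 26.8 and 28.1 CPM to 6.04, 7.28 and 7.60. Its fall of 1.98 ± 0.09 was 1.34 more than in the preceding step (adjusted p = 1.1e-09). SLC38A3, a glutamine transporter, fell from 25.6, 24.5 and 24.6 CPM to 9.94, 9.09 and 7.91, and CYP4F3, a fatty acid hydroxylase, from 16.4, 16 and 13.4 to 5.15, 4.62 and 6.38. CA5A, a mitochondrial carbonic anhydrase, fell from 12.4, 14.1 and 13.6 CPM to 5.2, 3.88 and 5.28, by 1 more on the log2 scale than in the preceding step (adjusted p = 0.00014). TFR2 and TMPRSS6, a sensor and a regulator of hepcidin control, fell, from 3.11 to 3.94 CPM to 1.06 to 1.75 and from 6.89 to 9.14 to 3.53 to 3.88, while BMP6, a ligand that induces hepcidin, rose from 20.5 to 23.2 CPM to 51.2 to 56.

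Among 18 liver transcription factors, 8 fell and 3 rose, median -0.29. HNF4A, the hepatocyte nuclear receptor, fell from 297, 293 and 285 CPM to 205, 197 and 207, by 0.32 more than in the preceding step (adjusted p = 8.3e-06). The 3 that rose were GATA6, from 52.3 to 61.6 CPM to 81.1 to 92.9, and, named outside the rule, FOXA2 and ONECUT2. Of 16 fetal and oncofetal genes, 10 fell and 3 rose. AFP, alpha-fetoprotein, went from 37, 32.5 and 32.4 CPM to 16, 14.4 and 14.9, and IGF2, the fetal growth factor, from 254, 239 and 238 to 139, 137 and 136. GPC3, a cell surface proteoglycan, fell less, from 1720, 1705 and 1730 CPM to 1346, 1344 and 1354. MDK, midkine itself, fell by 0.10 ± 0.03 (adjusted p = 0.0011), from 350, 354 and 352 CPM to 324, 321 and 338.

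Lipid synthesis fell as well. Of 24 cholesterol synthesis genes, 20 fell and none rose, median -0.41 (-0.21 in the preceding step), and all 11 fatty acid synthesis genes fell, median -0.45 (-0.28). HMGCS1, an early enzyme of the mevalonate pathway, fell from 238, 247 and 242 to 163, 160 and 165. MLXIPL, the carbohydrate-sensing factor ChREBP, fell from 37.8, 35.4 and 33.6 CPM to 13.7, 14.3 and 16. That fall of 1.28 ± 0.07 was 0.78 more than in the preceding step (adjusted p = 5.6e-06). PKLR, liver pyruvate kinase and a known ChREBP target, fell from 4.20 to 4.94 CPM to 1.37 to 2.06.

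Mitotic genes moved mainly in the last step. Of 27 tested, 23 fell and none rose, with a median of -0.27, whereas 10 fell and 1 rose in the preceding step, at a median of -0.05, and none was called from vehicle to 0.2 µM. MKI67, the proliferation antigen Ki-67, held 287, 269 and 266 CPM at 0.3 µM, next to a vehicle mean of 274, and 191, 221 and 198 at 0.4 µM. It fell by 0.43 ± 0.04 in the last step (adjusted p = 2.6e-12), and the difference from the preceding step was -0.43 (adjusted p = 2.2e-05). TOP2A, the topoisomerase of dividing cells, went from 573, 595 and 573 CPM to 399, 397 and 398, and CENPF, a kinetochore protein, from 208, 210 and 214 to 144, 174 and 153. In all, 13 of the 27 fell more in the last step than in the preceding one. Of 26 replication genes, 11 fell, 15 were not called and none rose, median -0.08. CDKN1A, the cell cycle inhibitor p21, rose from 208, 213 and 221 CPM to 273, 279 and 278, by 0.37 ± 0.03. Of 20 p53 targets, 14 rose and 1 fell, median 0.29 (0.20 in the preceding step), among them BBC3, the apoptosis activator PUMA, from 51.9, 51.7 and 54.4 CPM to 96.9, 82.5 and 85.7. Within the BCL2 family, 6 of 11 genes rose and 1 fell, and PMAIP1 (NOXA) rose from 11.9 to 13.2 CPM to 20.9 to 24.5, while the survival genes MCL1 and BCL2L1 rose too, by 0.30 ± 0.03 and 0.43 ± 0.03.

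Wnt target genes did not move as a block. Of 17 tested, 9 fell and 2 rose, with a median of -0.14, against 5 of each in the preceding step at a median of -0.05. AXIN2 (chromosome 17, 65528563 to 65561647), a direct target and inhibitor of the pathway, held 212, 214 and 204 CPM at 0.3 µM and 220, 214 and 222 at 0.4 µM. The change of 0.06 ± 0.03 was not called (adjusted p = 0.093). NKD1, another feedback inhibitor, fell from 315, 292 and 304 CPM to 261, 255 and 254 (-0.24 ± 0.03), and NOTUM, the secreted enzyme that inactivates Wnt ligands, from 25.4, 21 and 22.3 to 16.5, 14.4 and 16.3 (-0.54 ± 0.08). LEF1, a partner of beta-catenin on DNA, fell by 0.25 ± 0.06 and DKK1, a secreted antagonist, by 0.37 ± 0.03, from 399, 396 and 395 CPM to 311, 310 and 301. LGR5, a receptor for R-spondins, had overlapping groups, 23.3 to 23.9 CPM at 0.3 µM and 21.1 to 24.1 at 0.4 µM. MYC, often counted among the targets, rose from 68.8, 64.8 and 71.5 CPM to 107, 106 and 106, a change of 0.63 ± 0.04. CTNNB1, beta-catenin itself, was at 845, 847 and 861 CPM at 0.3 µM and 838, 839 and 834 at 0.4 µM (adjusted p = 0.41). WNT8A, a ligand, fell from 48.4, 49.4 and 46.2 CPM to 17.7, 16.7 and 17.5, and FZD5, a receptor, rose from 75.7, 79.1 and 78.4 to 121, 134 and 133.

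Few genes levelled off. None of the 8 that did had moved 2-fold by 0.3 µM. CPLX2, complexin 2 of vesicle release, had risen by 0.94 ± 0.07 by 0.3 µM, and held 28.9, 29.9 and 27.6 CPM at 0.3 µM and 31.7, 30.5 and 30.3 at 0.4 µM. Its log2 change was smaller in the last step than in the preceding one by 0.43 (adjusted p = 0.0051). AREG, the EGF receptor ligand amphiregulin, had fallen from 93.8 ± 0.869 CPM in vehicle (SD, n = 3) to 63.5, 66 and 61.9 and held 61.4, 62.3 and 59.1 at 0.4 µM. SERPINI1, neuroserpin, went from 46.6 CPM in vehicle to 27.5, 25.6 and 25.4 and then 27.4, 24.8 and 24.2. For NQO1, AREG and SERPINI1 the groups of the last step overlapped, as they did for EFNB3, DLEU1, GPRC5B and PNRC1, the other levelled genes. For CPLX2 the groups did not overlap: its 0.4 µM libraries all lay above those at 0.3 µM, a change of 0.10 that was not called (adjusted p = 0.185). AREG and PNRC1, a nuclear receptor coactivator, had fallen in the preceding step and differed from it in the last (differences 0.35 and 0.48, adjusted p = 0.0034 and 0.011). SHH, the sonic hedgehog ligand, turned back: it fell from 255 ± 2.65 CPM in vehicle (SD, n = 3) to 210 at 0.2 µM and 169, 175 and 160 at 0.3 µM, and stood at 192, 189 and 184 at 0.4 µM. The groups did not overlap, and the rise of 0.17 ± 0.03 (adjusted p = 7.2e-06) differed from the preceding fall by 0.49. The number that levelled off depends on the margin, and a margin of 1.5-fold gave 55.

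Other genes were called in the last step but not at 0.3 µM against vehicle, and are called late here. Of the genes not called at 0.3 µM against vehicle, 1564 rose and 1492 fell between 0.3 and 0.4 µM. A missed call does not show that 0.3 µM had no effect, but for 1168 and 952 of them the 95% interval of the change at 0.3 µM lay within the margin of 0.322. Most such changes were small, with medians of 0.20 and -0.22 and 0 and 2 genes past 2-fold. BMP2, SPRY4, PTP4A2 and RNF220, named below, rose past 2-fold, so their intervals at 0.3 µM did not lie within the margin. For these genes a change at 0.3 µM may have been missed. BMP2, a bone morphogenetic protein, rose most by the naming rule: it held 5.25, 5.76 and 6.12 CPM at 0.3 µM, against 5.39 ± 0.327 in vehicle (SD, n = 3), and 16.2, 18.4 and 16.1 at 0.4 µM. Its rise of 1.57 ± 0.11 exceeded the preceding step by 1.20 (adjusted p = 0.00022). SPRY4, a feedback inhibitor of receptor tyrosine kinases, rose from 7.04, 7.01 and 7.76 CPM to 15.6, 17.1 and 14.3, by 0.70 more than before (adjusted p = 0.025). CRYBG1, higher at 0.2 µM, was back at its vehicle level at 0.3 µM: it held 30.9, 32.6 and 31.5 CPM at 0.3 µM, at its vehicle mean of 31.2, and 15.1, 16 and 13.8 at 0.4 µM. GSTA1, a hepatocyte glutathione transferase chosen after its values were seen, fell by 0.82 ± 0.06. PTP4A2 and RNF220 are late risers that varied between replicates: PTP4A2 held 19.2 CPM in replicate 1 of 0.4 µM and 9.62 and 9.81 in replicates 2 and 3, and RNF220 8.52, 6.32 and 4.75.

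**Figure D5:**
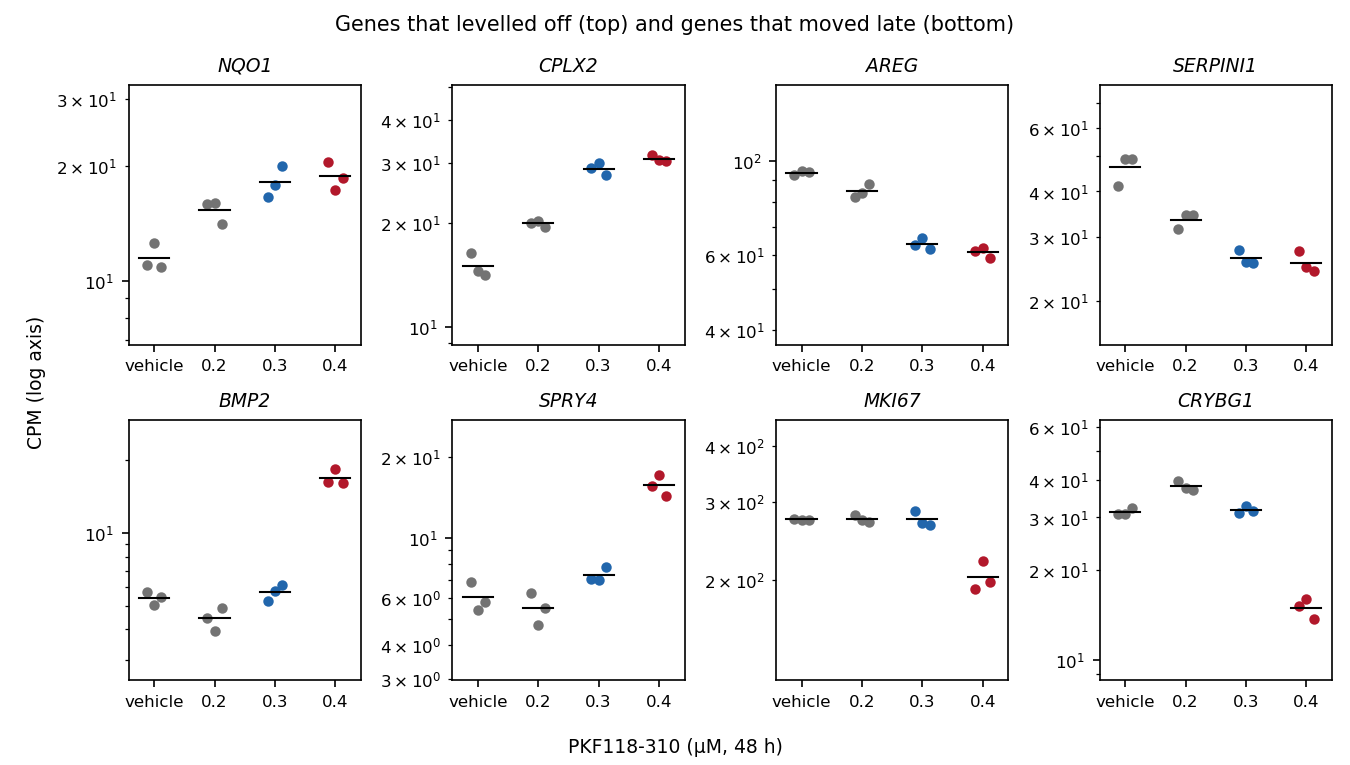
CPM on a log axis (y) in each library of vehicle, 0.2, 0.3 and 0.4 µM (x) for 4 genes that levelled off (top) and 4 that moved late (bottom). Points are libraries and bars are means of 3: NQO1 stays between 16.6 and 20.5 CPM over both upper doses, while BMP2 goes from 5.25 to 6.12 at 0.3 µM to 16.1 to 18.4 at 0.4 µM.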

How the data were processed

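RNA from Huh6 cells was made into stranded poly(A) libraries, per the labels' protocols. The authors deposited raw read counts per gene, made per the submitters' processing notes with STAR 2.7.3a, SAMtools 1.16.1 and featureCounts on GRCh38; which annotation was counted, and whether by strand, was not given in the sources used here. From these counts, all 18 Huh6 libraries (6 groups of 3) were fitted as group means in edgeR 4.0.16 under R 4.3.3, with TMM scaling, filterByExpr (15029 of 62696 genes kept), legacy quasi-likelihood F tests, Benjamini-Hochberg adjustment at 0.05, and 95% intervals from Wald standard errors. Library totals limit low genes, and the floor covers counting error only. Scripts were tested on simulated counts. The alternatives used DESeq2 1.42.0, limma 3.58.1 voom, other filters and scaling, a replicate block, the 6 libraries alone and each library left out.

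Named genes were the 15 highest and 15 lowest called genes with mean log2 CPM of at least 2 and no overlap, up to 5 called genes per list, 10 levelled genes per direction, 8 that turned back, 8 late per direction, 8 per direction for the difference between steps, and 17 given always. The 42 lists hold 737 genes, of which 611 were tested and 69 had 0 counts in all 18 libraries. Broadly expressed genes such as JUNB, HSPE1 and ASNS are among those listed at 0, which may be a loss in counting, so list counts cover only the members with counts. Members and lists were chosen with earlier results of these data known. Gene positions come from GENCODE 29 and promoters from RefSeq on GRCh38.p14. A few genes that the rule names are not reported here.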

Additional observations from a re-analysis of the deposited data

How the results depend on the processing

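Counts of genes higher and lower in the last step stayed within 1.5 times of 3250 and 2885 in every alternative, from 2898 to 3284 and from 2551 to 2864. Of 250 named genes, 239 were called, 220 kept their call under all 18 alternatives, 19 lost it under at least 1, and none reversed. Raising the limit for genes moved at 0.3 µM to log2 1 left 128 that kept changing, 0 levelled off, 8 turned back and 127 undecided. A margin of 1.5-fold gave 55 levelled genes. The DESeq2 Wald test gave 8 that turned back. Leaving out 1 library at a time gave 6 to 14 levelled genes, with 14 without vehicle replicate 2. It gave 102 to 177 genes higher and 112 to 200 lower at 0.2 µM than in vehicle: 104 and 112 without 0.2 µM replicate 1, 102 and 113 without vehicle replicate 3, and 116 lower without vehicle replicate 1. It gave 219 to 414 genes with a higher change in the last step than in the preceding one and 330 to 540 with a lower one: 260 and 330 without 0.3 µM replicate 1, and 219 and 239 higher without replicates 2 and 3. The cause was not tested.

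No pairing of libraries by replicate number was detected: between 0.3 and 0.4 µM, deviations of same-numbered libraries correlated at 0.0052, -0.068 and 0.068 across genes. The labels do not say whether same-numbered libraries were handled together. With the replicate block, 3221 genes were higher and 2856 lower in the last step, 1694 and 1438 in the preceding one, 528 kept changing, 7 levelled off and 14 turned back.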

Other observations

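Some lists that no comparison turned on moved by small amounts in many members. Of 28 ribosomal protein genes 25 rose and none fell in the last step, with a median log2 change of 0.09, where 2 had risen in the preceding step. Of 17 ribosome biogenesis genes 15 rose, at a median of 0.27, and 14 had risen in the preceding step. Changes as small as those of the ribosomal proteins are relative to the scaling, which centres on the bulk of the genes. Of 28 proteasome genes 15 rose and none fell (median 0.09), and of 20 tRNA synthetase genes 14 rose and 2 fell (median 0.15). Of 12 genes whose transcripts host small nucleolar RNAs or are read by nonsense-mediated decay, 10 rose and none fell.

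Of 18 hypoxia and glycolysis genes, 12 rose and 1 fell, with a median of 0.27 against 0.08 in the preceding step. SLC2A1, the glucose importer GLUT1, rose from 220, 221 and 236 CPM to 427, 449 and 450, by 0.41 more than in the preceding step. Of 13 genes of the mitochondrial genome 6 fell and 1 rose, while of 17 nuclear genes of the respiratory chain 6 rose and none fell. Both counts depended on the setting: 11 mitochondrial genes fell without 0.4 µM replicate 1, 10 without a filter on low counts and 4 by the DESeq2 Wald test, and 3 nuclear genes rose without the filter. MT-ND5 and MT-ND6, subunits of complex I, fell by 0.44 and 0.49. Of 8 interferon-stimulated genes tested, 2 rose and 1 fell, and of 8 class I antigen presentation genes 2 rose and 2 fell.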
